A study of Mus musculus with 9 samples.

Results

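DNA replication and mitosis genes are described here in RAW264.7 cells, a mouse macrophage line that arose from a tumour induced by Abelson murine leukemia virus in a male animal. The genes are a list of 54 symbols, each matched to 1 entry among the 55401 genes of the deposited table. They were chosen by name for their known roles, with earlier results of these data known. By role they fall into 29 G1/S genes, which act before and during DNA synthesis, 22 G2/M genes, which act at or just before mitosis, and 3 cell cycle inhibitors. The study asked how skatole, an indole made by gut bacteria from tryptophan, acts on macrophages stimulated with lipopolysaccharide (LPS), a component of the bacterial wall. Wild-type cells received DMSO (the vehicle), LPS with DMSO (LPS), or LPS with skatole (LPS + Ska) for 24 h, and each of the 3 groups comprised 3 samples numbered 5, 6 and 7. All groups came from 1 cell line, and cells given skatole without LPS were not analysed here. Nothing in the sample descriptions says that the replicates were separate cultures, so the p-values measure only the spread between these samples.

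Levels are given in TPM, a unit that accounts for transcript length. This lets genes be compared within a sample, but it keeps no sequencing depth, so the depth is unknown. Columns were tied in both LPS groups. Replicate 5 was the mean of the other two replicates in 17950 of 17950 genes with LPS, and likewise in 17658 of 17658 genes with LPS + Ska. Each of these groups thus holds 2 values per gene, and these 2 recovered values, called value 1 and value 2, are used below beside the 3 DMSO columns. They are not replicates 6 and 7 themselves but lie midway between replicate 5 and each of them, so they spread less. In LPS, for example, mitochondrial genes took 10.7% and 10.1% in replicates 6 and 7, and 10.5% and 10.2% in the 2 values. Standard errors and adjusted p below rest on these values, and groups that do not overlap in them can overlap in the deposited columns. Fold changes were estimated with limma on log2(TPM + 1) over the 12819 genes whose mean reached 1 TPM, a scale that understates the change of low genes. A gene was called changed when its adjusted p was below 0.05 and its ratio exceeded 1.5 or was under 0.67. Standard errors are abbreviated SE. All 8 macrophage markers, Lyz2, Cd68 and Csf1r among them, were detected in every sample, with summed levels from 12314 to 13275 TPM with DMSO, from 7373 to 7573 with LPS and from 13634 to 13780 with LPS + Ska. Lyz2 carried most of these sums, whereas Cd68 (839, 657 and 608 TPM on average in the 3 groups) and Csf1r (835, 522 and 467 TPM) were lower in both LPS groups. The 4 epithelial markers were at 0 throughout, and no fibroblast, lymphocyte or neutrophil marker exceeded 3.07 TPM in any sample. Mitochondrial genes took 7.20% to 9.64% of TPM with DMSO, 10.2% to 10.5% with LPS and 10.4% to 11.4% with LPS + Ska. In bulk RNA, fewer cells of a kind and less RNA per cell cannot be told apart.

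A dividing cell first licenses its replication origins by loading the MCM helicase with Cdc6 and Cdt1, then copies its DNA under cyclin E and Cdk2, and later enters mitosis under cyclin B and Cdk1. Genes of the first phase are classically driven by E2F factors, and those of the later phase by complexes that act at a CHR element, often beside CCAAT boxes bound by NF-Y. Macrophage lines divide continuously, whereas most macrophages of a tissue divide rarely.

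These elements were sought as exact words in RefSeq promoter windows (GRCm38.p6), each from 250 bases before to 50 after a transcription start site, on both strands. The E2F words were TTTCCCGC, TTTCGCGC, TTTGCCGC and TTTGGCGC. For the CHR, the usual form TTTGAA was searched. A second form was TTCGAA, and the CCAAT box was searched by the letters of its name. The form TTCGAA reads the same on both strands, and words of different kinds may overlap. Windows were found for 43 of the 54 genes, with 50 windows in all, and none was found for Aurkb, Ccna2, Ccnd1, Ccne2, Foxm1, Gmnn, Kif20a, Mcm4, Myc, Pole and Tpx2. An E2F word was present in 11 of 28 G1/S windows (39.3%) and in 1 of 17 G2/M windows (5.88%), against 4.21% of the 11058 windows of tested genes and 2.26% of all 32851 windows. A CHR word was present in 13 of 17 G2/M windows (76.5%) and in 4 of 28 G1/S windows (14.3%), against 14.4% of windows of tested genes and 19.2% of all windows. A CCAAT box was present in 88.2% of G2/M and 60.7% of G1/S windows, against 38.5% and 37.4%. None of the 5 windows of the inhibitors held an E2F or CHR word. A match is a description of the letters and not evidence of binding.

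**Figure D1:**
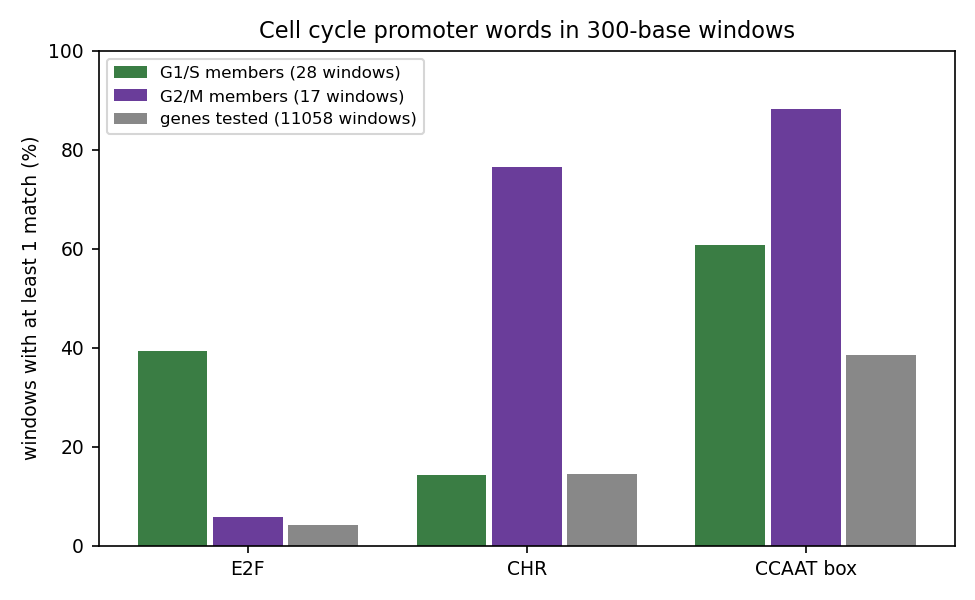
Share of promoter windows (vertical axis, %) with at least 1 match to each kind of word (horizontal axis), for G1/S genes (green, 28 windows), G2/M genes (purple, 17 windows) and all tested genes (grey, 11058 windows). E2F words stand out in the G1/S windows at 39.3%, and CHR words in the G2/M windows at 76.5%.

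The windows of Mcm6, Mcm7, Plk1 and Mki67 are shown because they hold such words and because skatole on top of LPS gave lower values of each by adjusted p. They were chosen after the matches and the changes were seen. Capitals mark E2F, CHR and CCAAT words on either strand, and each sequence reads 5′ to 3′ on the strand of the gene. The Mcm6 window (chr1:128359656-128359955, minus strand) has 3 E2F words, of which 2 overlap, and 2 CCAAT words. The first Mcm7 window (chr5:138171834-138172133, minus strand) has 2 E2F words, 3 CCAAT words, 1 of which overlaps an E2F word, and a TTCGAA, which was counted on both strands. The Plk1 window (chr7:122159185-122159484, plus strand) has 1 CHR and 1 CCAAT word, and the Mki67 window (chr7:135716330-135716629, minus strand) has 2 CHR and 3 CCAAT words.
Mcm6: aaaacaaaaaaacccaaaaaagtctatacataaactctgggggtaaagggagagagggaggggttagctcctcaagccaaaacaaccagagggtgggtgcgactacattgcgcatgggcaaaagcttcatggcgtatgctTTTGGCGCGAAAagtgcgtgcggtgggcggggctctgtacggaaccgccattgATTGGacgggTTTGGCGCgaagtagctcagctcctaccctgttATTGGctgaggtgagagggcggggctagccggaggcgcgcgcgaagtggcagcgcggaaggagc
Mcm7: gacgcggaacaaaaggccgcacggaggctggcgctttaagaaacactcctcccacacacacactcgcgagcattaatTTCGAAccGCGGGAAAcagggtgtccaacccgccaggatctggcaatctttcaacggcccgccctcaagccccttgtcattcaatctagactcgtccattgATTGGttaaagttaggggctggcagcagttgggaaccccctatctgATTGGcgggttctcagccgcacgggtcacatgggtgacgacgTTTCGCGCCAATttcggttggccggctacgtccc
Plk1: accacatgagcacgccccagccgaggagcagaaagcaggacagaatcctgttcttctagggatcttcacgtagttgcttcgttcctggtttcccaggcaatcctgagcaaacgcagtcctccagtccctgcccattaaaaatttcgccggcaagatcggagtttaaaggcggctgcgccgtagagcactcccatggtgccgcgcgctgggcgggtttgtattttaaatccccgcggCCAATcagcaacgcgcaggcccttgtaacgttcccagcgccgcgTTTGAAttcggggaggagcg
Mki67: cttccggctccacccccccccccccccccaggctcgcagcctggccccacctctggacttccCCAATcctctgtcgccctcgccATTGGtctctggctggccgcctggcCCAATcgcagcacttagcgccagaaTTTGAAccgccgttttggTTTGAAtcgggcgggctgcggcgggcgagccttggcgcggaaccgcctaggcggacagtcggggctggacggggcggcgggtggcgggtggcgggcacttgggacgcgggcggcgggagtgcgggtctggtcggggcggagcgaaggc

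All 54 genes passed the filter on low values. Their mean levels with DMSO ran from 7.23 TPM for Myc to 680.3 TPM for Pcna, with a median of 114 TPM. In LPS compared with DMSO, 2 of the 54 were called higher (Myc and Chek1), where 12.8% of all tested genes were called higher. A further 8 were called lower (Uhrf1, Tk1, Cdk4, E2f1, E2f2, Cdkn2c, Aurkb and Foxm1), where 19.8% of all tested genes were. With skatole on top of LPS, none was called higher, against 2.82% of tested genes, and only Mki67 was called lower, against 4.99%. By adjusted p alone, with no fold limit, 2 genes were higher with skatole (E2f2 and Cdkn1a, against 5.9% of tested genes) and 15 were lower (against 12.7%). In LPS + Ska compared with DMSO, 2 genes were called higher (Ccne2 and Myc, against 11.4%) and 17 lower (against 25%). Both comparisons with LPS share its values, and both with DMSO share the DMSO columns. By adjusted p alone, LPS against DMSO gave 8 higher and 21 lower genes, where 24.8% and 33% of tested genes were, and LPS + Ska against DMSO gave 7 higher and 31 lower, where 21.7% and 39.1% were. Scaling each sample by its median ratio across genes moved the counts called higher and lower to 4 and 5 in LPS against DMSO, where 15.8% and 16.1% of all tested genes then were. They moved to 1 and 1 in LPS + Ska against LPS (4.14% and 3.38% of all) and to 5 and 9 in LPS + Ska against DMSO (17.8% and 16.9% of all). The 9 lower genes are 16.7% of the 54, so the share called lower against DMSO, 31.5% without that scaling, was then at the background. By adjusted p alone the scaled counts were 15 and 19 in LPS against DMSO (30.4% and 28.2% of all), 3 and 10 in LPS + Ska against LPS (9.96% and 7.69% of all), and 16 and 24 in LPS + Ska against DMSO (31.5% and 29.1% of all).

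**Figure D2:**
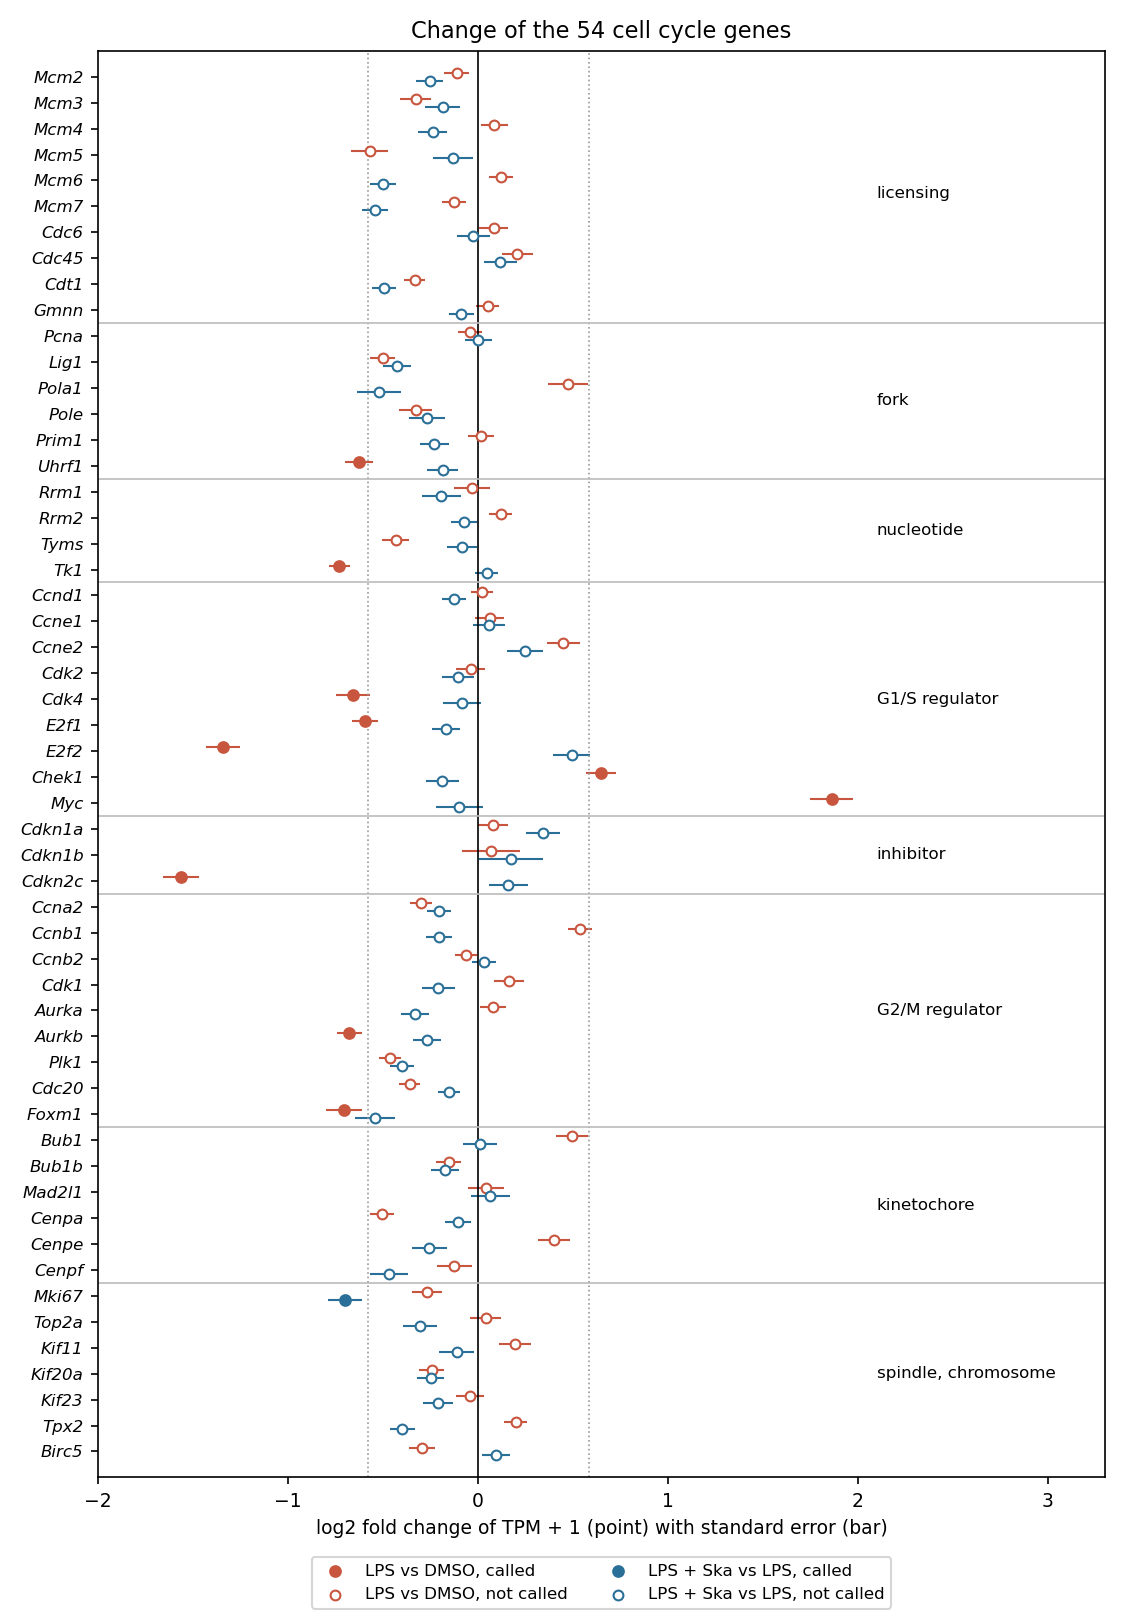
Log2 fold change of TPM + 1 (horizontal axis, point) with its standard error (bar) for each of the 54 genes (listed by role), in LPS compared with DMSO (red) and LPS + Ska compared with LPS (blue). Filled points were called and dotted lines mark the fold limits of 1.5 and 0.67. The red points spread from -1.56 to 1.86, while the blue points lie between -0.70 and 0.49 and mostly left of 0.

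Of the 10 licensing genes, none was called changed by LPS or by skatole on top of LPS. By adjusted p alone, 4 were lower with skatole (Mcm2, Mcm6, Mcm7 and Cdt1), against 12.7% of all tested genes. Cdt1, which brings the MCM helicase to origins, had 195, 189.9 and 199 TPM with DMSO, 151 and 158 with LPS, and 108 and 111 with LPS + Ska. Its values stepped down from group to group with no overlap, with log2 fold changes of -0.33 (SE 0.06, adjusted p = 0.0014) from DMSO to LPS and -0.50 (SE 0.06, adjusted p = 0.0026) from LPS to LPS + Ska. The change from DMSO to LPS + Ska was -0.83 (SE 0.06, adjusted p = 1.3e-05), which passed the fold limit. With the trend on transcript GC content removed, a fit described with the GC values further on, the LPS change of Cdt1 turned to 0.14 (adjusted p = 0.09) and the change from DMSO to LPS + Ska was -0.37, inside the fold limit.

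Mcm6 and Mcm7, and Pola1 further on, are given in full because they were lower with skatole by adjusted p, a choice made after their values were seen. Mcm7, a helicase subunit, had 153, 168 and 164 TPM with DMSO, 146 and 149 with LPS, and 100.3 and 102 with LPS + Ska. Its LPS values lay just below the DMSO columns, with -0.13 (SE 0.06, adjusted p = 0.11), and its LPS + Ska values lay well below both, at -0.54 (SE 0.07, adjusted p = 0.0025) against LPS. Mcm6, another subunit, was slightly above DMSO with LPS and below both groups with skatole, with 213, 204 and 220.1 TPM with DMSO, 228 and 233 with LPS, and 170.0 and 156 with LPS + Ska. Its log2 fold change in LPS + Ska compared with LPS was -0.50 (SE 0.07, adjusted p = 0.0036).

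Mcm2, also of the helicase, had 107, 109.6 and 119 TPM with DMSO, 101 and 106 with LPS, and 87.4 and 85.4 with LPS + Ska. Its groups stepped down without overlap in these values, although the deposited LPS columns reach into the DMSO range. Its skatole change was -0.26 (SE 0.07, adjusted p = 0.044). Mcm5 had 228, 200.7 and 257 TPM with DMSO, 149 and 157 with LPS, and 143 and 135 with LPS + Ska. Its LPS values lay far below DMSO, with -0.57 (SE 0.10, adjusted p = 0.0014), next to the fold limit, and skatole differed by -0.13 (SE 0.11, adjusted p = 0.42). The LPS change of Mcm5 was called at -0.66 without DMSO replicate 6, was -0.61 without LPS value 2 and was -0.43 with the GC trend removed. From DMSO to LPS + Ska it changed by -0.70, past the fold limit. That change was -0.50 with median-ratio scaling and -0.55 with the GC trend removed, both inside the limit. Cdc6, the loader of the helicase, had 25.95, 26.4 and 28.2 TPM with DMSO, 29.2 and 27.7 with LPS, and 28.2 and 27.7 with LPS + Ska, and these values overlapped in all groups (log2 fold changes of 0.08 with LPS and -0.02 with skatole, adjusted p = 0.4 and 0.87). Gmnn, which encodes geminin, the inhibitor of Cdt1, had 171, 171 and 157 TPM with DMSO, 172 and 172 with LPS, and 165 and 159.6 with LPS + Ska. Its LPS + Ska values lay inside the DMSO range, with log2 fold changes of 0.05 (SE 0.06, adjusted p = 0.5) for LPS and -0.09 (SE 0.07, adjusted p = 0.39) for skatole. The other 3 licensing genes, Mcm3, Mcm4 and Cdc45, had skatole changes from -0.24 to 0.12.

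Among the 6 fork genes, Uhrf1 was the only one called with LPS and none was called with skatole. Uhrf1, which carries DNA methylation onto new strands, had 150.5, 157 and 172 TPM with DMSO, 98.3 and 108 with LPS, and 91.0 and 89.7 with LPS + Ska. All LPS values lay far below DMSO, a log2 fold change of -0.63 (SE 0.07, adjusted p = 0.00022), and the skatole step was -0.19 (SE 0.08, adjusted p = 0.15). The LPS change was -0.58 without DMSO replicate 7, -0.56 without LPS value 1 and -0.53 with median-ratio scaling, all inside the fold limit. Pcna, the sliding clamp and the most abundant of the 54 transcripts, had 631, 689.8 and 720.1 TPM with DMSO, 653 and 667 with LPS, and 659.8 and 661 with LPS + Ska. The groups overlapped, with -0.04 (SE 0.06, adjusted p = 0.6) for LPS and 0.00 (SE 0.07, adjusted p = 0.99) for skatole. Removal of the GC trend put the LPS change of Pcna at -0.27 (adjusted p = 0.0097). Reads of Pcna may be split with its pseudogene Pcna-ps2, which was listed at 8.93 to 14.0 TPM. Lig1, the ligase that joins Okazaki fragments, was lower in both steps by adjusted p, with -0.50 (SE 0.07, adjusted p = 0.00036) and then -0.43 (SE 0.07, adjusted p = 0.0077). Pola1, the catalytic subunit of the polymerase that starts each strand, had 25.1, 27.4 and 30.2 TPM with DMSO, 37.0 and 40.1 with LPS, and 28.5 and 24.8 with LPS + Ska. It was above DMSO with LPS (0.47, SE 0.10, adjusted p = 0.005), and with skatole it overlapped DMSO again (-0.52, SE 0.11, adjusted p = 0.018 against LPS). Without LPS + Ska value 1 the skatole change of Pola1 was called at -0.62. With the GC trend removed, Pola1 was at 0.03 (adjusted p = 0.83) for LPS and at -0.49 (adjusted p = 0.0036) for LPS + Ska, both against DMSO, so neither the higher LPS level nor the overlap with DMSO was seen in that fit.

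Of the 4 nucleotide supply genes, Tk1 fell with LPS and none was called with skatole. Tk1, a thymidine salvage kinase, had 232, 243 and 240.3 TPM with DMSO, 146 and 141 with LPS, and 146 and 149.9 with LPS + Ska. The LPS and LPS + Ska values all lay far below the lowest DMSO value, with -0.73 (SE 0.05, adjusted p = 2.4e-05) for LPS and 0.05 (SE 0.06, adjusted p = 0.62) for skatole. Tyms, which makes dTMP, had 39.7, 39.2 and 41.0 TPM with DMSO, 29.04 and 29.6 with LPS, and 26.8 and 28.3 with LPS + Ska. It was lower with LPS, at -0.43 (SE 0.07, adjusted p = 0.0012), inside the fold limit, and differed by -0.09 (SE 0.08, adjusted p = 0.48) between LPS + Ska and LPS. A pseudogene, Tyms-ps, was at most 0.524 TPM. Rrm2, the regulated subunit of ribonucleotide reductase, had 266, 256 and 278 TPM with DMSO, 285 and 295 with LPS, and 285 and 267 with LPS + Ska. Its LPS + Ska values overlapped DMSO, with 0.12 (SE 0.06, adjusted p = 0.12) for LPS and -0.07 (SE 0.07, adjusted p = 0.48) for skatole.

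Of the 9 G1/S regulators, 5 were called with LPS, 2 higher and 3 lower (12.8% and 19.8% of all tested genes), and none with skatole. Myc, a transcription factor of growth and a known early target of LPS signalling, had 7.72, 7.16 and 6.81 TPM with DMSO, 31.1 and 26.8 with LPS, and 28.9 and 24.97 with LPS + Ska. LPS raised it by 1.86 (SE 0.11, adjusted p = 8.4e-06), and the LPS + Ska values overlapped those of LPS (-0.10, SE 0.12, adjusted p = 0.61). Chek1, the replication checkpoint kinase, had 33.7, 38.7 and 35.5 TPM with DMSO, 56.7 and 57.0 with LPS, and 51.5 and 48.1 with LPS + Ska. It rose with LPS by 0.65 (SE 0.08, adjusted p = 0.00027) and differed by -0.19 (SE 0.09, adjusted p = 0.17) with skatole.

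E2f2, an activator of the E2F family, had 21.2, 20.5 and 21.0 TPM with DMSO, 7.64 and 7.62 with LPS, and 11.0 and 11.3 with LPS + Ska. LPS lowered it by more than any other G1/S gene, with -1.34 (SE 0.09, adjusted p = 1.3e-05). Both LPS + Ska values lay above both LPS values and below every DMSO value, with 0.49 (SE 0.10, adjusted p = 0.013) against LPS, inside the fold limit, and -0.85 (SE 0.09, adjusted p = 9.7e-05) against DMSO. With median-ratio scaling the skatole change of E2f2 was 0.59 and was called. Removal of the GC trend put E2f2 at -0.94 with LPS and at -0.46 with LPS + Ska, both against DMSO. The latter was inside the fold limit. E2f1, its relative, had 51.0, 51.0 and 52.97 TPM with DMSO, 34.2 and 33.5 with LPS, and 29.4 and 30.6 with LPS + Ska. It fell by 0.60 (SE 0.07, adjusted p = 0.00018) with LPS, and all LPS + Ska values lay lower still (-0.17, SE 0.07, adjusted p = 0.15). With median-ratio scaling the LPS change of E2f1 was -0.50, and that of Cdk4 was -0.56, both inside the fold limit. Cdk4, the partner of cyclin D, had 367, 385 and 432 TPM with DMSO, 249 and 250.3 with LPS, and 216 and 255 with LPS + Ska. It fell by 0.66 (SE 0.09, adjusted p = 0.00047) with LPS, and the LPS + Ska values lay on both sides of the LPS values (-0.09, SE 0.10, adjusted p = 0.58).

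None of the cyclins of this phase was called with LPS or with skatole on top of it. Ccne2, a cyclin E gene, had 38.1, 44.2 and 41.7 TPM with DMSO, 59.9 and 53.7 with LPS, and 69.9 and 65.1 with LPS + Ska. Its groups stepped up without overlap in these values, although the deposited LPS and LPS + Ska columns overlap. Its changes were 0.45 (SE 0.09, adjusted p = 0.0028) with LPS and 0.25 (SE 0.10, adjusted p = 0.11) with skatole. The change from DMSO to LPS + Ska passed the fold limit (0.70, SE 0.09, adjusted p = 0.00025). With the GC trend removed, the LPS change of Ccne2 turned to -0.09 (adjusted p = 0.38). Ccne1, the other cyclin E gene, had 60.4, 53.04 and 58.2 TPM with DMSO, 59.2 and 60.2 with LPS, and 64.1 and 60.4 with LPS + Ska, with changes of 0.06 (SE 0.08, adjusted p = 0.51) and 0.06 (SE 0.08, adjusted p = 0.66). Its LPS change was 0.26 (adjusted p = 0.025) with the GC trend removed. Ccnd1, a cyclin D gene, had 231, 217 and 228 TPM with DMSO, 226 and 231 with LPS, and 217 and 202 with LPS + Ska. Its LPS + Ska values overlapped DMSO, with 0.02 (SE 0.06, adjusted p = 0.77) for LPS and -0.13 (SE 0.07, adjusted p = 0.21) for skatole. Cdk2 changed by -0.04 and -0.11 in the same comparisons and was not called.

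Of the 3 inhibitors, Cdkn2c fell with LPS and Cdkn1a was higher with skatole by adjusted p alone. Cdkn2c, which encodes p18, an inhibitor of Cdk4 and Cdk6, had 56.0, 61.5 and 63.1 TPM with DMSO, 18.8 and 20.7 with LPS, and 20.6 and 23.7 with LPS + Ska. Every LPS and LPS + Ska value was far below DMSO, with -1.56 (SE 0.10, adjusted p = 8.4e-06) for LPS, and the skatole step was 0.16 (SE 0.10, adjusted p = 0.32). Cdkn1a, which encodes p21, a target of p53 and an inhibitor of cyclin E and cyclin A kinases, had 116, 106 and 125 TPM with DMSO, 118 and 126 with LPS, and 159 and 151 with LPS + Ska. DMSO and LPS overlapped (0.08, SE 0.08, adjusted p = 0.43), but the LPS change was 0.36 (adjusted p = 0.011) with the GC trend removed. Both LPS + Ska values lay above all others, with 0.34 (SE 0.09, adjusted p = 0.034) against LPS and 0.42 (SE 0.08, adjusted p = 0.0023) against DMSO, both inside the fold limit. The adjusted p against LPS was 0.079 with no filter on low values and 0.076 with no intensity trend, and it ran from 0.099 to 0.23 when any LPS or LPS + Ska value was left out. With median-ratio scaling the change against DMSO was 0.63 and was called. Cdkn1b, which encodes p27, had 18.9, 18.4 and 26.5 TPM with DMSO, 21.4 and 22.6 with LPS, and 26.4 and 23.5 with LPS + Ska. Its DMSO columns spread widely and overlapped both groups, with 0.07 (SE 0.15, adjusted p = 0.73) for LPS and 0.17 (SE 0.17, adjusted p = 0.51) for skatole.

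Among the 9 G2/M regulators, LPS lowered Aurkb and Foxm1, while Ccnb1 was higher by adjusted p alone. Foxm1, a transcription factor of G2/M genes, had 95.0, 84.8 and 84.2 TPM with DMSO, 53.6 and 53.4 with LPS, and 40.0 and 33.2 with LPS + Ska. The 3 groups did not overlap, with -0.71 (SE 0.09, adjusted p = 0.0004) for LPS, -0.54 (SE 0.10, adjusted p = 0.011) for skatole, inside the fold limit, and -1.25 (SE 0.09, adjusted p = 2e-05) from DMSO to LPS + Ska. Without LPS + Ska value 1 the skatole change of Foxm1 was -0.67 and was called, and without value 2 it was -0.41 (adjusted p = 0.065). Aurkb, the kinase of the chromosome passenger complex, changed by -0.68 (SE 0.07, adjusted p = 7.9e-05) with LPS and -0.27 (SE 0.07, adjusted p = 0.037) with skatole.

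Ccnb1, the mitotic cyclin, had 212, 216 and 231 TPM with DMSO, 316 and 321 with LPS, and 287 and 266 with LPS + Ska. All LPS values exceeded every DMSO value, with 0.54 (SE 0.06, adjusted p = 0.0002), just inside the fold limit, and LPS + Ska lay between them (-0.20, SE 0.07, adjusted p = 0.073 against LPS). With median-ratio scaling the LPS change of Ccnb1 was 0.63 and was called. Removal of the GC trend put that change at 0.23 (adjusted p = 0.011) and Ccnb1 in LPS + Ska at 0.03 against DMSO (adjusted p = 0.69). Its pseudogene Ccnb1-ps was listed at 1.51 to 5.15 TPM, and that of Ccnb2, Ccnb2-ps, at 1.04 to 2.13 TPM, so reads of these cyclins may be split with the copies. Cdk1, the partner of cyclin B, had 97.8, 115 and 113 TPM with DMSO, 118 and 125 with LPS, and 105 and 105 with LPS + Ska, with 0.16 (SE 0.08, adjusted p = 0.11) for LPS and -0.21 (SE 0.09, adjusted p = 0.13) for skatole. LPS + Ska overlapped DMSO for Cdk1 and lay below LPS.

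Plk1, a kinase of mitotic entry and exit, had 113, 115 and 113 TPM with DMSO, 84.1 and 80.6 with LPS, and 62.3 and 61.9 with LPS + Ska. Its groups stepped down without overlap, with -0.46 (SE 0.06, adjusted p = 0.00027) and -0.40 (SE 0.06, adjusted p = 0.0058), and with -0.86 (SE 0.06, adjusted p = 1.1e-05) from DMSO to LPS + Ska. With the GC trend removed, its LPS change was -0.10 (adjusted p = 0.2) and its change from DMSO to LPS + Ska was -0.51, inside the fold limit. Aurka, a spindle pole kinase, had 108, 115 and 123 TPM with DMSO, 123 and 119.7 with LPS, and 95.3 and 97.4 with LPS + Ska. DMSO and LPS overlapped (0.08, SE 0.07, adjusted p = 0.35), and both LPS + Ska values lay below all others (-0.33, SE 0.08, adjusted p = 0.022 against LPS). Cdc20, the activator of the anaphase-promoting complex, had 193, 202 and 200.9 TPM with DMSO, 153 and 156 with LPS, and 138 and 139.5 with LPS + Ska. It was lower with LPS, at -0.36 (SE 0.05, adjusted p = 0.00066), and skatole differed by -0.15 (SE 0.06, adjusted p = 0.11). With the GC trend removed, the LPS change of Cdc20 was -0.03 (adjusted p = 0.74).

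No checkpoint or kinetochore gene of the 6 was called in either step. With LPS, Bub1 (0.50) and Cenpe (0.40) were higher and Cenpa (-0.51), the centromeric histone, was lower, all by adjusted p alone on the log2 scale. With the GC trend removed, Bub1 was at 0.04 (adjusted p = 0.7) and Cenpe at 0.03 (adjusted p = 0.8), while Cenpa was at -0.55. With skatole, Cenpf, a kinetochore protein of late G2, was lower at -0.47 (SE 0.10, adjusted p = 0.018), while the other 5 changed by -0.26 to 0.06. Mad2l1 changed by 0.04 and 0.06 in these comparisons, but its LPS change was -0.44 (adjusted p = 0.003) with the GC trend removed.

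Mki67, which encodes the proliferation antigen Ki-67, was the only gene of the 54 called in LPS + Ska compared with LPS. It had 163, 158 and 158 TPM with DMSO, 133 and 132 with LPS, and 88.9 and 73.9 with LPS + Ska. The 3 groups did not overlap, and the LPS + Ska values were the most spread. Mki67 differed by -0.27 (SE 0.08, adjusted p = 0.021) with LPS, fell by a further 0.70 (SE 0.09, adjusted p = 0.0025) with skatole, and differed by -0.97 (SE 0.08, adjusted p = 2.9e-05) from DMSO. Without LPS + Ska value 2 the skatole change was -0.57 (adjusted p = 0.012), just inside the fold limit, and without value 1 it was -0.83. Top2a, the topoisomerase that untangles sister chromatids, had 298, 313 and 343 TPM with DMSO, 329.7 and 324 with LPS, and 284 and 246 with LPS + Ska. DMSO and LPS overlapped (0.04, SE 0.08, adjusted p = 0.69), and both LPS + Ska values lay below them (-0.30, SE 0.09, adjusted p = 0.0496 against LPS). Removal of the GC trend put the LPS change of Top2a at -0.31 (adjusted p = 0.0086). Birc5, which encodes survivin, had 187, 193 and 189 TPM with DMSO, 155 and 153 with LPS, and 154 and 176 with LPS + Ska. It was lower with LPS, at -0.30 (SE 0.07, adjusted p = 0.006), and the LPS + Ska values reached from the LPS level towards DMSO (0.10, SE 0.07, adjusted p = 0.4). The other 4 genes of this group, Kif11, Kif20a, Kif23 and Tpx2, changed by -0.40 to -0.11 with skatole, with Kif20a and Tpx2 lower by adjusted p alone.

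**Figure D3:**
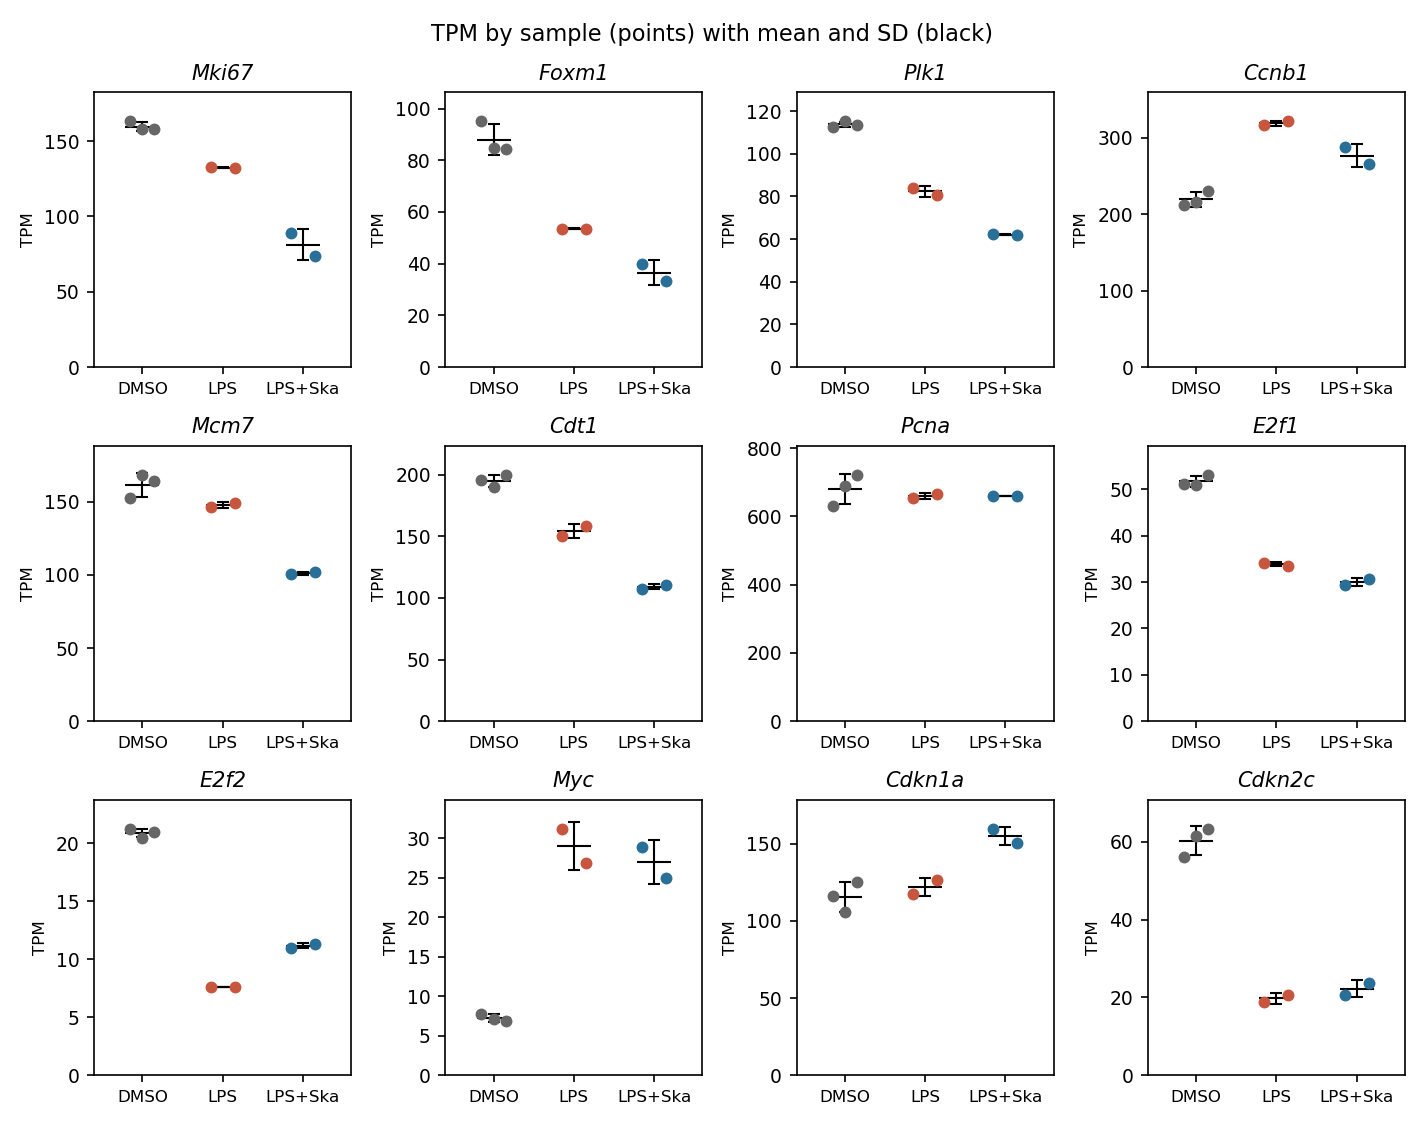
TPM (vertical axis, from 0) of 12 genes in each sample, with the 3 DMSO columns in grey, the 2 LPS values in red and the 2 LPS + Ska values in blue, and the mean and SD in black. Mki67, Foxm1, Plk1 and Cdt1 step down from group to group, Pcna is level, Myc is high in both LPS groups, and Cdkn1a is highest with LPS + Ska.

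Leaving out 1 LPS or LPS + Ska value leaves 1 value in that group, and such fits assume that it varies like the others. With each value left out in turn, the median skatole change ran from -0.17 to -0.12 for G1/S genes. For G2/M genes it ran from -0.27 to -0.17. The lone call, Mki67, was lost only without LPS + Ska value 2.

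G1/S and G2/M genes were then set side by side. In LPS compared with DMSO the median log2 fold change was -0.04 for the 29 G1/S genes, -0.09 for the 22 G2/M genes and -0.06 for all 12819 tested genes. In LPS + Ska compared with LPS it was -0.13 for G1/S, -0.21 for G2/M and 0.17 for the inhibitors, against -0.09 for all genes. Between LPS + Ska and DMSO it was -0.22 and -0.26 for G1/S and G2/M, against -0.17. Median-ratio scaling shifted the median of all genes by 0.09, 0.10 and 0.18 in these 3 comparisons, and it turned the medians of LPS compared with DMSO to 0.06 for G1/S and 0.00 for G2/M. Relative to the median of all genes, the skatole change was -0.04 for G1/S and -0.12 for G2/M, and -0.03 and -0.11 after that scaling. In the fit without the GC trend, the LPS change against DMSO was 0.00 for G1/S and -0.13 for G2/M on this relative scale. There LPS + Ska against DMSO was at -0.17 for both classes. A total of 36 of the 54 genes lay below the median of all genes with skatole in both scalings, and 37 had both LPS + Ska values below both LPS values, as did 47.4% of all tested genes. No test was made over the classes, since the genes were listed with earlier results of these data known.

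The mean log2(TPM + 1) of each class was also taken by sample. For G2/M genes it was 6.93, 7.00 and 7.01 with DMSO, 6.88 and 6.89 with LPS, and 6.70 and 6.61 with LPS + Ska. For G1/S genes it was 6.53, 6.56 and 6.63 with DMSO, 6.48 and 6.49 with LPS, and 6.35 and 6.32 with LPS + Ska. Neither class overlapped between any groups. The G2/M mean exceeded the G1/S mean by 0.38 to 0.43 with DMSO and by 0.40 with LPS, and by 0.34 and 0.29 with LPS + Ska, below every other sample. The mean of all tested genes also stepped down, from 4.42 to 4.47 with DMSO to 4.37 to 4.39 with LPS and 4.28 to 4.31 with LPS + Ska.

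**Figure D4:**
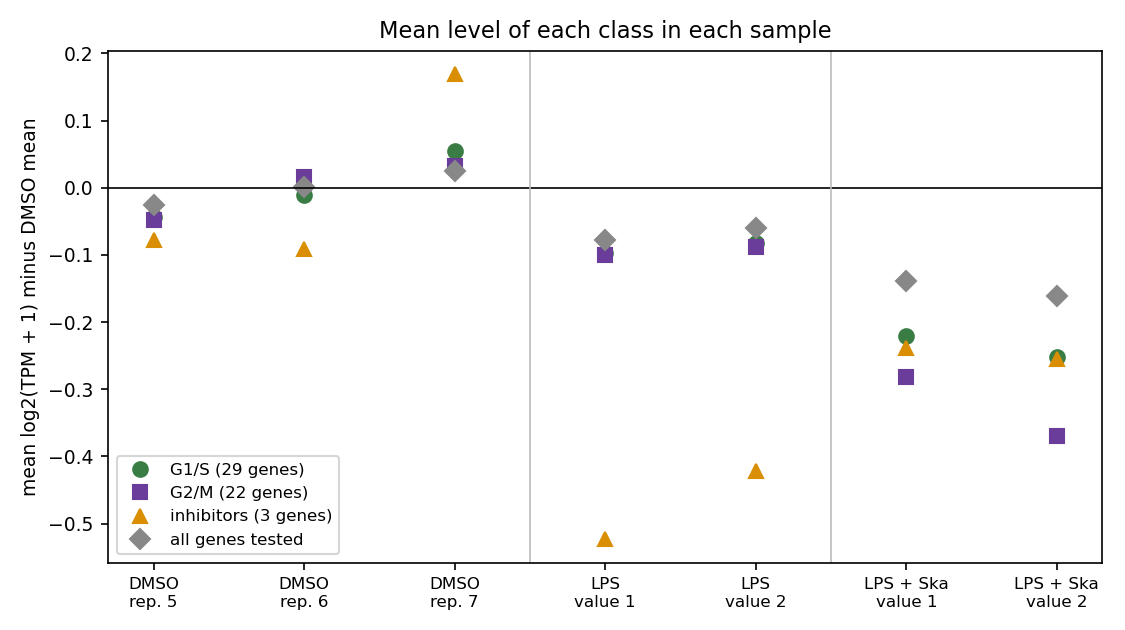
Mean log2(TPM + 1) of each class minus its DMSO mean (vertical axis) in each DMSO column and each recovered LPS or LPS + Ska value (horizontal axis), for G1/S (circles), G2/M (squares), inhibitors (triangles) and all tested genes (diamonds). The G2/M genes lie lowest with LPS + Ska, and the inhibitors lie lowest with LPS, where Cdkn2c was -1.56.

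The changes with LPS varied with the base composition of the transcripts, whereas those with skatole did not. The GC content of the longest GENCODE transcript had a median of 54.1% for the 8 genes called lower with LPS, 47.8% for the 44 genes not called, and 41.0% and 53.3% for Chek1 and Myc, which were called higher. Across the 54 genes, GC content and the log2 fold change of LPS compared with DMSO had a Pearson r of -0.54 and a Spearman rho of -0.64. Across the 12805 tested genes with a GC value these were -0.45 and -0.55. For LPS + Ska compared with LPS they were -0.01 and -0.02 across the 54 genes. The genes of each comparison share the same libraries, so no p is given. After removal of each column's trend on GC content, a step chosen after the data were seen, LPS compared with DMSO gave 1 gene called higher (Myc) and 4 lower (E2f2, Cdkn2c, Tk1 and Tyms), where 7.97% and 13.5% of all tested genes were. By adjusted p alone it gave 4 higher and 24 lower (16.6% and 27.5% of all). Of the others, E2f1 moved from -0.60 to -0.09 (adjusted p = 0.32) and Chek1 from 0.65 to 0.19 (adjusted p = 0.068), while Uhrf1, Cdk4, Aurkb and Foxm1 moved to between -0.50 and -0.38, inside the fold limit. Against LPS, Mki67 was called in that fit as well, at -0.66 (adjusted p = 0.0023), and 13 genes were lower by adjusted p alone, where 12.4% of all were. Between LPS + Ska and DMSO, Ccne2 moved to 0.12 (adjusted p = 0.21) and Cdkn1a was called higher at 0.71. There 10 genes were called lower, 18.5% of the 54 where 19.1% of all were. Without the fold limit, 37 were lower by adjusted p (68.5% of the 54, where 37.4% of all were) and 4 were higher (15.1% of all). The part of GC content in the LPS changes was not tested.

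**Figure D5:**
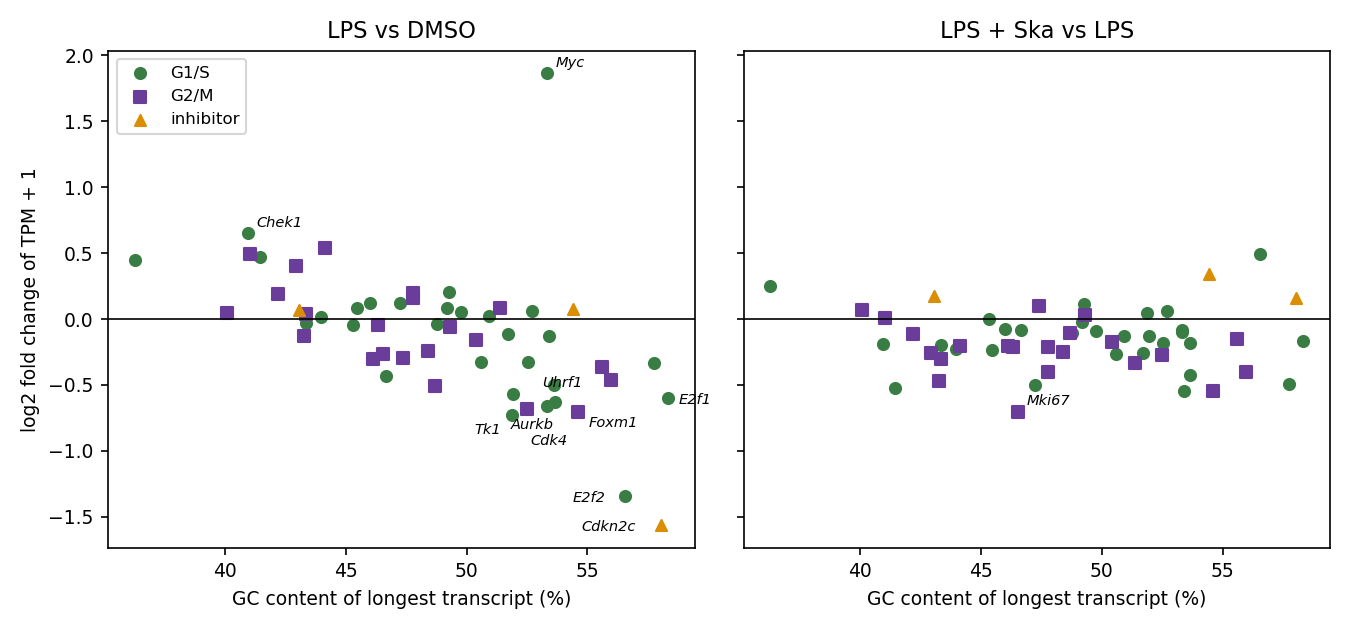
Log2 fold change of TPM + 1 (vertical axis) against the GC content of the longest transcript (horizontal axis, %) for the 54 genes, in LPS compared with DMSO (left) and LPS + Ska compared with LPS (right), with called genes named. The points slope down on the left (Pearson r = -0.54), with Myc far above the rest, and show no slope on the right (r = -0.01).

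Promoter words and changes were also set side by side, as a description. In LPS + Ska compared with LPS, the 17 genes with a CHR word had a median log2 fold change of -0.21 and the 26 without one had -0.12. Over all tested genes with a window the corresponding medians were both close to that of all genes, at -0.09 for the 1470 genes with a CHR word and -0.10 for the 7226 without one. The 12 genes with an E2F word had a median of -0.20 and the 31 without one had -0.11, against -0.13 and -0.09 over all tested genes with a window. In LPS compared with DMSO the medians were -0.23 with and -0.04 without an E2F word, and -0.11 with and -0.03 without a CHR word. Over all tested genes with a window they were -0.07 with and -0.09 without an E2F word, and -0.07 with and -0.10 without a CHR word. For the CCAAT box they were -0.04 with and -0.32 without among the listed genes, and -0.10 and -0.08 over all tested genes with a window. Between LPS + Ska and LPS, the CCAAT medians were -0.19 with and -0.06 without among the listed genes. Over all tested genes with a window they were -0.09 and -0.10.

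Other genes of the pathway were taken from lists written by role. Of 50 further replication genes, LPS raised 7 and lowered 3, where 12.8% and 19.8% of all tested genes were called. Skatole on top of LPS lowered 1 (4.99% of all), Rfc3, a clamp loader subunit, which fell by 0.61 (SE 0.09, adjusted p = 0.0053). The largest LPS changes in this list were those of Pold1 (-0.92), the catalytic subunit of a replicative polymerase, Rpa3 (0.87), which coats single-stranded DNA, Gins3 (-0.79), a helicase cofactor, and Orc4 (0.77) and Orc3 (0.77) of the origin recognition complex. Orc4 had 38.6, 37.7 and 31.6 TPM with DMSO, 61.9 and 61.8 with LPS, and 59.3 and 57.0 with LPS + Ska. The other called subunits of this complex, Orc2 (0.61) and Orc5 (0.65), named after their values were seen, also rose with LPS. Transcript GC content was 44.4%, 38.6%, 36.8% and 38.2% for Orc2, Orc3, Orc4 and Orc5, and 34.2% for Rpa3. It was 61.0% for Pold1 and 47.9% for Gins3, with a median of 49.2% over all tested genes. The part of GC content in these changes was not tested.

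Of 13 tested G1/S control genes among 15 listed, LPS raised 1 and lowered 4, against 12.8% and 19.8% of all tested genes. Skatole lowered 2, against 4.99%. Cdk6, a partner of cyclin D, had 34.1, 31.9 and 36.3 TPM with DMSO, 63.5 and 65.2 with LPS, and 37.5 and 34.1 with LPS + Ska. It rose by 0.90 (SE 0.08, adjusted p = 6.1e-05) with LPS, fell by 0.83 (SE 0.09, adjusted p = 0.0015) with skatole and then overlapped DMSO. E2f8, a repressor of the E2F family, had 63.7, 61.0 and 66.1 TPM with DMSO, 46.1 and 46.8 with LPS, and 31.7 and 28.6 with LPS + Ska and fell by 0.61 (SE 0.08, adjusted p = 0.0034) with skatole. The called LPS decreases were those of Mxd4 (-1.48) and Mnt (-0.89), which oppose Myc, of Ccnd3 (-0.998), a cyclin D gene, and of Mycn (-0.59), a Myc relative. Mycn had 655, 642 and 635 TPM with DMSO, 432 and 422 with LPS, and 364 and 389 with LPS + Ska, far above Myc in every sample.

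Of 51 further mitosis genes, LPS raised 3 and lowered 6, against 12.8% and 19.8% of all tested genes. None was called with skatole, where 1 was higher and 8 were lower by adjusted p alone, against 5.9% and 12.7% of all tested genes. The largest LPS changes were those of Kifc1 (-1.04), Kif18a (0.99) and Kif22 (-0.82), which are mitotic kinesins, of Incenp (-0.93), a partner of Aurkb, and of Cdc25b (-0.71), a phosphatase that activates Cdk1. LPS thus raised some genes of a role and lowered others, as among the 54. Over the 139 tested genes of the 5 lists, the median GC content was 40.8% for the 15 called higher with LPS and 55.3% for the 18 called lower.

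Of 13 tested inhibitors among 16 listed, LPS raised Gadd45a (1.29), a stress gene, and lowered Btg2 (-1.26), Pkmyt1 (-0.82) and Cdkn2d (-0.74), and none was called with skatole. Of 12 tested p53 targets other than Cdkn1a, among 14 listed, LPS raised Fas (1.32), Ccng1 (0.79) and Sesn2 (0.76) and lowered Bbc3 (-1.01) and Bax. Transcript GC content was 43.9%, 40.8% and 58.7% for Fas, Ccng1 and Sesn2, and 65.2% and 63.5% for Bbc3 and Bax. Among all tested genes, LPS raised 12.8% and lowered 19.8%, and skatole on top of LPS raised 2.82% and lowered 4.99%. Skatole raised 1, Bax, a mediator of apoptosis, by 0.72 (SE 0.10, adjusted p = 0.004). Bax had 329.9, 307 and 356 TPM with DMSO, 174 and 183 with LPS, and 267 and 322 with LPS + Ska. Its LPS values lay below all others, at -0.89 (SE 0.09, adjusted p = 0.00012) against DMSO. In LPS + Ska compared with LPS the p53 targets had a median log2 fold change of 0.16, against -0.09 for all genes, with 3 higher and 1 lower by adjusted p alone, where 5.9% and 12.7% of all tested genes were.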

How the data were processed

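RNA-seq was made from RAW264.7 cells in 3 groups of 3 samples. The deposited values are TPM per gene, made by the authors, and the submitters' processing notes name fastp 0.20.1, HISAT2 2.2.1, StringTie 2.0 and the genome build mm10. TPM keeps no depth, so no count test was possible and the precision rests on the number of samples. The sample descriptions give a treatment of 24 h, whereas the study's methods state another time.

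The 54 genes and the other lists were chosen with earlier results of these data known. In LPS and LPS + Ska, replicate 5 equalled the mean of replicates 6 and 7 within 1e-05 TPM, whereas in DMSO at most 0.0636% of genes did, so 2 values were recovered from each tied group. These lie midway between replicate 5 and replicates 6 and 7. The 12819 genes whose mean reached 1 TPM were fitted on log2(TPM + 1) over all 7 values with limma 3.58.1 in R 4.3.3, with an intensity trend and Benjamini-Hochberg adjustment over all of them. A call needed an adjusted p under 0.05 together with a ratio over 1.5 or under 0.67. The script was tested on simulated data. Full values are given for the inhibitors, for a list of genes named by role and for every gene called in LPS + Ska against LPS, and at most 5 called genes of each further list are named per comparison. Deviations of same-numbered samples correlated by -0.03 to 0.08 between DMSO and the other groups and by 0.13 to 0.38 between LPS and LPS + Ska, where the columns are tied, so no pairing by number was assumed. GC content came from the longest GENCODE transcript, and its trend was removed by loess as an alternative chosen after the data were seen. Other alternatives were the deposited columns, a replicate block, the pseudocount, the filter, the scaling, the genes of mitochondria and ribosomes left out, the compared groups alone, no intensity trend, and each value left out. Promoter windows came from RefSeq (GRCm38.p6). Plots used matplotlib 3.10.9 (Python 3.11.15).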

Additional observations from a re-analysis of the deposited data

How the results depend on the processing

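With median-ratio scaling, LPS against DMSO gave 4 genes called higher and 5 lower, with medians of 0.0585 (G1/S) and 0.0020 (G2/M), LPS + Ska against LPS gave 1 higher (E2f2), with medians of -0.0248 and -0.10, and LPS + Ska against DMSO gave 5 and 9, with medians of -0.0185 and -0.0528. Without mitochondrial and ribosomal genes, the G1/S median of LPS against DMSO was -0.00058, and those of LPS + Ska against DMSO were -0.17 (G1/S) and -0.21 (G2/M). By adjusted p alone the counts higher and lower were 8 and 21, 2 and 15, and 7 and 31 in the same order. With the GC trend removed, LPS against DMSO gave 1 and 4, with medians of -0.0895 and -0.22, where that of all genes was -0.0899. LPS + Ska against DMSO then gave 10 lower, or 37 by adjusted p alone (19.1% and 37.4% of all). The medians there were -0.36 for both classes, where that of all genes was -0.19. Leaving out 1 value at a time, the G1/S median of LPS against DMSO ran from -0.10 without DMSO replicate 5 to 0.0079 without DMSO replicate 7. For LPS + Ska against LPS it ran from -0.17 to -0.12 and the G2/M median from -0.27 to -0.17. The count called lower there ran from 0, without LPS + Ska value 2, to 3, without value 1 (Mki67, Foxm1 and Pola1). For LPS + Ska against DMSO the medians ran from -0.29 to -0.18 (G1/S) and from -0.36 to -0.24 (G2/M). These fits assume that a lone value varies like the others. With the deposited columns, 21 genes were lower with skatole by adjusted p alone, where 2524 of all 12819 tested genes were. The replicate block on those columns gave 16, where 2166 of all were. It had 0 called higher and 1 called lower, where 427 and 771 of all were. The replicate block left the counts of calls at 2 and 8 in LPS against DMSO, where 1649 and 2586 of all were. In LPS + Ska against DMSO, Cenpa was -0.54 without LPS + Ska value 1, Cenpf was -0.56 without DMSO replicate 7 and -0.52 without LPS + Ska value 2, and Pole was -0.56 without DMSO replicate 5 and -0.53 without LPS + Ska value 2, each inside the fold limit. Changes of sign were counted over only a part of the listed genes. Of the changes of those genes that were not called, 13 changed sign with median-ratio scaling and 10 with the GC trend removed. These counts leave out genes that also changed sign. With the GC trend removed, the LPS change against DMSO went from 0.19 to -0.22 for Kif11 and from 0.04 to -0.44 for Mad2l1. Those of Mcm4, Mcm6 and Prim1, also left out, turned from positive to negative as well. Apart from scaling and GC content, whose construction moves all genes, the cause of these differences was not tested. Depth is unknown, and 2 values in a group limit what could be detected.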
